A study of Mus musculus with 12 samples.

Results

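The 38 genes described here encode the machinery that starts, extends, closes and fuses the autophagosome. They were chosen by name, each symbol matched 1 row, and they are 38 of the 46078 genes in the deposited table. Of these, 36 were abundant enough to test, against 10981 tested genes in all. RNA-seq was made from the mouse microglial line BV2, an immortalised line used as a stand-in for brain macrophages, as 12 libraries in 4 groups of 3 (A, B and C). The groups were WT cells in medium, WT cells given 1 U/mL IFNγ for 24 h, Atg5 KO cells in medium, and Atg5 KO cells given the same IFNγ. All 4 groups shared the BV2 background, the culture medium with serum, and the time of harvest. The labels give neither how the knockout was made nor how many clones it came from, so the genotype and the clone cannot be told apart. RNA came from the cytosol of gently lysed cells, with nuclei spun out, and libraries were primed at the poly-A end.

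Macroautophagy wraps a piece of cytoplasm in a double membrane and delivers it to the lysosome. The ULK kinase complex starts the process and activates a class III PI3-kinase complex, which marks the initiation membrane with the lipid PI3P. WIPI proteins read that mark, while ATG2, ATG9A, VMP1 and TMEM41B move lipids into the growing membrane. ATG4 proteases trim the ubiquitin-like ATG8 proteins (LC3 and GABARAP), and the ATG12-ATG5-ATG16L1 complex then joins them to membrane lipid. That joining step is the one that loss of ATG5 blocks. Finished autophagosomes fuse with lysosomes through SNARE proteins and tethers. In macrophages, IFNγ, the cytokine of type II interferon signalling, is known for turning on cell-autonomous defence in which several of these proteins also act.

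Values are log2 of normalised reads plus 1, as the authors deposited them, so a step of 1 is a 2-fold change for all but the lowest genes. A change was called where limma's adjusted p was under 0.05 over all 10981 tested genes. Each library sums many cells, so a change in the share of cells holding a transcript and a change in its amount per cell cannot be told apart. Levels of different genes are not compared with each other.

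Of the 36 members, 1 was called in any comparison. Tecpr1 fell by 1.16 on the log2 scale with IFNγ in Atg5 KO cells, 2.23-fold. No member was called with IFNγ in WT cells or between the genotypes, in medium or under IFNγ. Nor was any member's IFNγ response called as different between the genotypes. Over all tested genes, 6.65% were called with IFNγ in WT cells and 7.36% in KO cells. Between the genotypes 0.428% were called in medium and 0.492% under IFNγ, and 0% for the difference of the responses. The latter shares leave little room for a call among 36 genes of any kind. Most members lay within 1 log2 unit of no change, with intervals that for many of them reached past a 2-fold change.

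The libraries held 3329849 to 7330435 reads assigned to genes, of which the 38 members took 0.130% to 0.177%. On the first axis of a principal component analysis, 40.4% of the variance, the IFNγ libraries lay at 22.2 to 56.3 and the medium libraries at -45.9 to -33.5. WT IFNγ C stood nearest to the medium libraries of the 6 treated ones, at 22.2, and calls that turn on it are given both ways. All 14 microglial and macrophage markers listed had reads, although Cx3cr1 (207 reads in all), P2ry12 (87) and Tmem119 (62) had few. Of 6 markers each, 5 for fibroblasts, 4 for neurons and 3 for astrocytes had no read. Of 6 for oligodendrocytes, Mog, Mag and Olig2 had none, Cnp had 877 reads, and the summed normalised reads of that list were 46.3 to 74.7 in WT medium, 92.6 to 114 in WT IFNγ, 58.4 to 71.3 in KO medium and 55.9 to 124 in KO IFNγ. Of 6 for T cells, Cd3e and Cd8a had none, Lck had 288 reads, and the sums were 10.6 to 12.8, 34.9 to 56.8, 14.6 to 15.3 and 17 to 41.6 in the same order. Both sums were higher in the IFNγ libraries of WT cells without overlap, as was the T cell sum in those of KO cells, and their part in the members' values was not tested.

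Atg5 itself, the gene named as knocked out, had reads in all 12 libraries. It stood at 8.57, 8.51 and 8.35 in WT medium (A, B and C), at 8.92, 8.86 and 8.96 in WT IFNγ, at 8.68, 9.02 and 8.84 in KO medium, and at 8.83, 8.74 and 8.77 in KO IFNγ. In medium the KO libraries all lay above the WT ones, with a difference of 0.37 (adjusted p = 0.595). Under IFNγ they all lay below, with a difference of -0.13 (adjusted p = 0.817). Over all genes, 13.6% and 16.1% did not overlap in these 2 comparisons. These reads come from the transcript's poly-A end, and where the gene was altered is not given, so they do not check the labels.

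The promoters of 2 members are shown here to give the sequence context of the members that the results turn on: Tecpr1 as the called member, and Atg101 as a member whose IFNγ and medium libraries did not overlap in either genotype and lay in opposite directions. Each is 300 bases from RefSeq on GRCm38.p6, from 250 before the gene's start to 50 after it, 5′ to 3′ on the gene's strand. No base is in capitals, since neither holds a motif searched.
Tecpr1, chr5:144223566-144223865, minus strand: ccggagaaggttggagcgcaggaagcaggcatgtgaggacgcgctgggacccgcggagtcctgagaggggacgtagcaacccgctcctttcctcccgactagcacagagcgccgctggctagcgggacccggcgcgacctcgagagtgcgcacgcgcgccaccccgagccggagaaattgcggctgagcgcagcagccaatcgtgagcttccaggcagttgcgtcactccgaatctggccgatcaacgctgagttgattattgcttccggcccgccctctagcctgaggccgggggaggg
Atg101, chr15:101284051-101284350, plus strand: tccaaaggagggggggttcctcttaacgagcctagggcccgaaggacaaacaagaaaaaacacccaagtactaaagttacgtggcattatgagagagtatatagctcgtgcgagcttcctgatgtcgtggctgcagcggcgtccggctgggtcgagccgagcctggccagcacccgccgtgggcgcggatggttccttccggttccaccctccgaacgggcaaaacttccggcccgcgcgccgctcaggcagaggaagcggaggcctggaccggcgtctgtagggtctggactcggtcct
RefSeq promoters were found for 32 of the 38 members, 38 promoters in all, and both strands of each were searched for 2 motifs. The CACGTG core, the E-box that TFEB family factors bind, was in 3 (7.89%), those of Atg14, Nrbf2 and Rubcn, against 7.15% of 32851 promoters of the same length. The ISRE core, 2 copies of GAAA set 2 bases apart and the site of interferon regulatory factors, was in 0, against 3.44%. A match is a run of letters, not a bound site, and the promoters of Tecpr1 and Atg101 held neither within this window.

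Whether IFNγ changed the machinery in WT cells was asked first. The call rate was 6.65% over all genes (730 of 10981, 4.53% higher and 2.12% lower), and 0 of the 36 members were called. At an unadjusted p under 0.05 there were 8 members (3 higher and 5 lower) where 19.9% of all genes passed (1186 higher and 998 lower). Voom on the recovered reads called 0 members. The treated and untreated libraries did not overlap for 10 members, 6 higher and 4 lower, against 24.1% of all genes, 12.9% higher and 11.3% lower. The median change of the members was -0.11, beside -0.02 over all genes. For 17 of the 36 the 95% interval lay within a 2-fold change in either direction, beside 6077 of the 10981 tested genes.

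**Figure D1:**
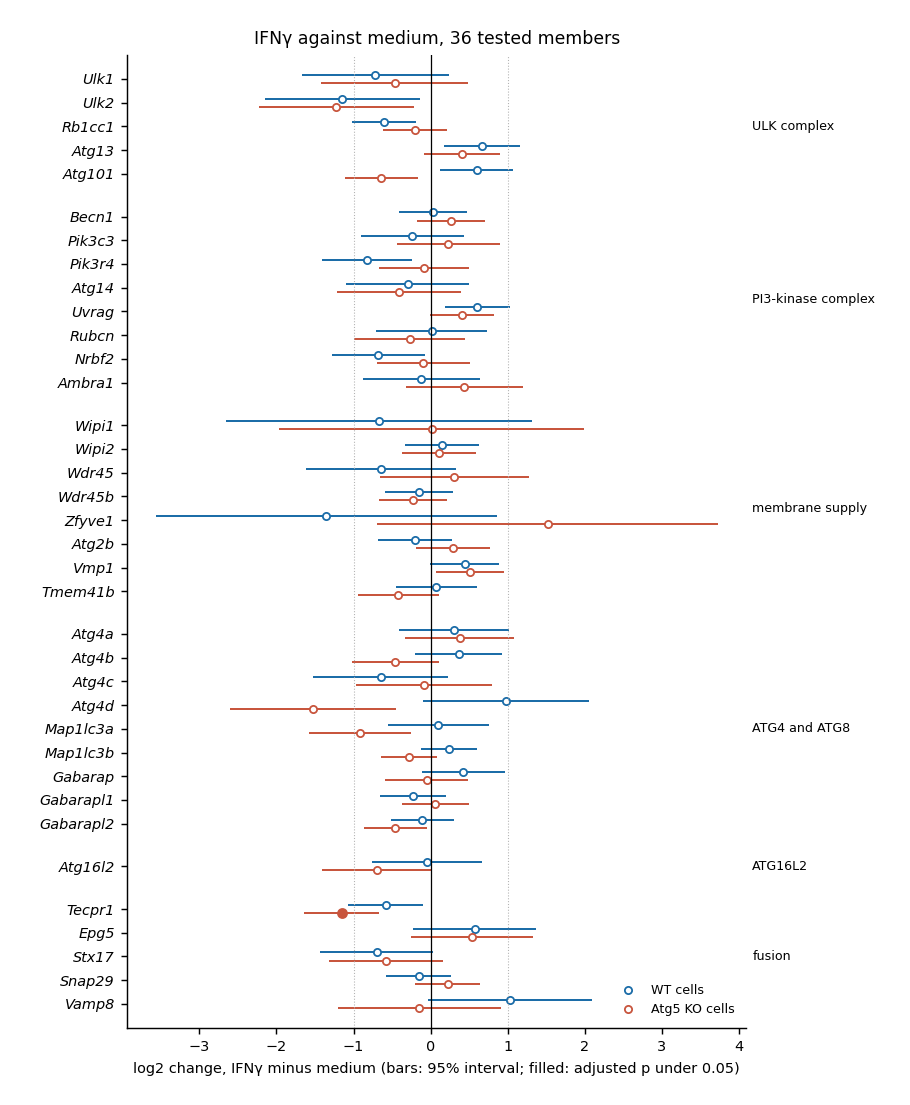
Change with IFNγ of the 36 tested members on the log2 scale, with 95% intervals, in WT cells and in Atg5 KO cells, grouped by role. The filled point is the called change, Tecpr1 in Atg5 KO cells at -1.16, and dotted lines mark a 2-fold change.

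In Atg5 KO cells, where 7.36% of all genes were called with IFNγ (808 of 10981), 1 of the 36 members was called. Over all genes 2.69% were called lower and 4.67% higher. An unadjusted p under 0.05 was reached by 7 members, 1 higher and 6 lower, beside 19.3% of all genes (1173 higher and 946 lower). Libraries did not overlap for 11 members, 4 higher and 7 lower, beside 24.4% of all genes, 12.8% higher and 11.6% lower. The median change was -0.09 for the members and 0.01 for all genes. Intervals of 19 of the 36 lay within a 2-fold change, beside 6122 of the 10981 tested genes.

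Tecpr1 (ENSMUSG00000066621, chromosome 5, 144194442 to 144223615, minus strand, GRCm38) encodes a protein that in human cells binds PI3P and the ATG12-ATG5 conjugate and promotes fusion with the lysosome. In Atg5 KO cells it stood at 8.5, 8.87 and 8.65 in medium and at 7.16, 7.48 and 7.92 with IFNγ (A, B and C). Every treated KO library was thus below every untreated one. The change was -1.16 (SE 0.23, 95% interval -1.65 to -0.66, adjusted p = 0.00332), and it was called under all 22 alternatives, with adjusted p from 0.000371 to 0.0288.

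In WT cells Tecpr1 stood at 8.86, 8.95 and 9.22 in medium and at 8.26, 8.12 and 8.90 with IFNγ. Libraries A and B were lower with IFNγ than any in medium, and C overlapped them. The change of -0.58 (SE 0.23) was not called (adjusted p = 0.158), while without WT IFNγ C it was -0.82 and was called (adjusted p = 0.0314). The KO response differed from the WT response by -0.57 (SE 0.33, 95% interval -1.27 to 0.12, adjusted p = 0.752), so the responses were not shown to differ. Without WT IFNγ C that difference was -0.34. Under IFNγ, Tecpr1 was 0.91 below WT in the KO cells without overlap (adjusted p = 0.0976), and in medium the difference was -0.34 (adjusted p = 0.785).

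**Figure D2:**
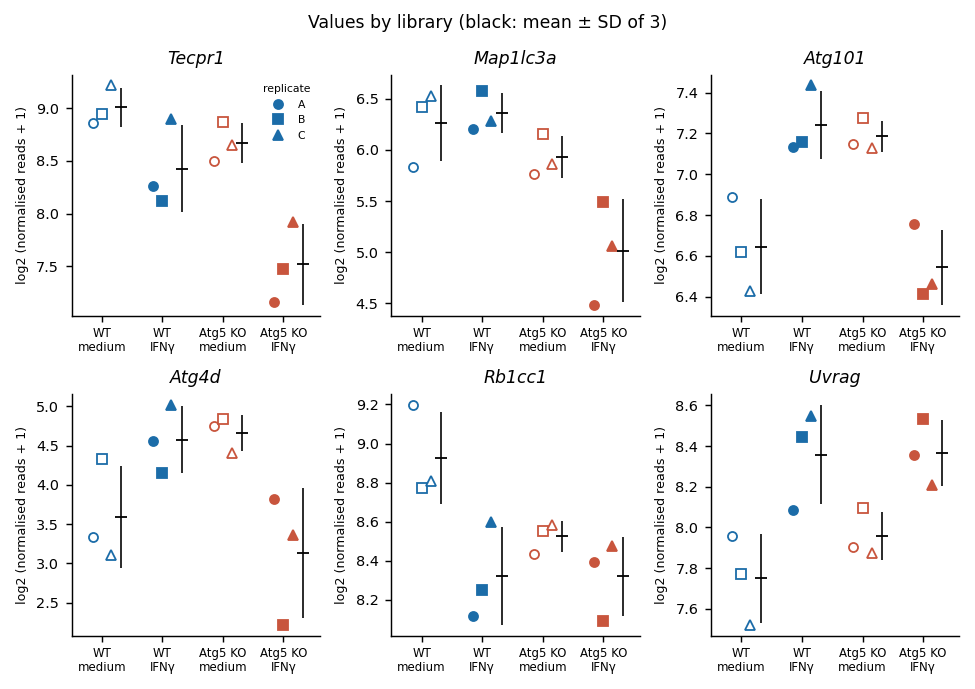
Values of 6 members in each of the 12 libraries, on an axis of log2 normalised reads plus 1 that does not start at 0, with the mean and SD of 3 beside each group. Tecpr1 lies lowest in the KO IFNγ libraries (7.16 to 7.92), and Atg101 lies higher in WT IFNγ and in KO medium than in the remaining groups.

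Among the 5 members of the ULK complex, none was called in any comparison, beside 0% to 7.36% of all genes over the 5 comparisons. Rb1cc1 encodes FIP200, the scaffold of the complex. It stood at 9.20, 8.77 and 8.81 in WT medium and at 8.12, 8.25 and 8.60 with IFNγ, and at 8.44, 8.55 and 8.58 in KO medium and 8.39, 8.09 and 8.47 with IFNγ. The WT libraries did not overlap and the KO libraries did. The WT change of -0.60 (SE 0.20) had an adjusted p of 0.0766, and it was called without WT IFNγ C (adjusted p = 0.0284). The KO change was -0.20 (SE 0.20, adjusted p = 0.637).

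Atg101 encodes a stabilising partner of ATG13. Its libraries stood at 6.89, 6.62 and 6.43 in WT medium and at 7.13, 7.16 and 7.43 with IFNγ, all of the latter higher. In KO cells they stood at 7.15, 7.27 and 7.13 in medium and at 6.76, 6.42 and 6.46 with IFNγ, all of the latter lower. The WT change was 0.60 (SE 0.23, adjusted p = 0.134) and the KO change -0.64 (SE 0.23, adjusted p = 0.102). Over all genes, 0.428% had IFNγ and medium libraries that did not overlap in both genotypes and lay in opposite directions. The difference of the responses was -1.24 (SE 0.32, unadjusted p = 0.00109), and it did not pass over all genes (adjusted p = 0.379).

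Atg13, the regulatory subunit that links ULK1 to FIP200, stood at 7.71, 7.64 and 8.21 in WT medium and at 8.46, 8.64 and 8.47 with IFNγ, a change of 0.67 (SE 0.23, adjusted p = 0.100). Its KO libraries overlapped, with a change of 0.41 (SE 0.23, adjusted p = 0.373). Ulk2 and Ulk1 encode the kinases, and both had few reads, 286 and 379 over the 12 libraries. Ulk2 stood at 5.17, 4.93 and 4.98 in WT medium and 4.31, 3.39 and 3.95 with IFNγ, and at 5.32, 4.76 and 5.04 in KO medium and 4.76, 2.70 and 3.97 with IFNγ. The means were lower with IFNγ in both genotypes, by log2 changes of -1.14 (SE 0.48, adjusted p = 0.181) and -1.23 (SE 0.48, adjusted p = 0.15), and neither passed. Without KO IFNγ B, which held 6 reads of Ulk2, the KO change was -0.67. Ulk1 changes were -0.72 (SE 0.46, adjusted p = 0.416) and -0.47 (SE 0.46, adjusted p = 0.642), and its libraries overlapped in both genotypes.

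The PI3-kinase complex has a shared core of the lipid kinase Pik3c3 (VPS34), its regulatory kinase Pik3r4 (VPS15) and Becn1 (Beclin 1). Atg14 directs it to the initiation site, and Uvrag to endosomes. None of its 8 members was called, beside 0% to 7.36% of all genes over the 5 comparisons. Becn1 stood at a mean of 7.98 ± 0.14 (SD, n = 3) in WT medium and 8.02 ± 0.08 with IFNγ, and the WT change of 0.03 had a 95% interval of -0.41 to 0.48. In KO cells the Becn1 change was 0.27 (95% interval -0.18 to 0.71, adjusted p = 0.547). Both intervals lay inside a 2-fold change.

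Pik3r4 stood at 6.44, 6.42 and 6.73 in WT medium and at 5.37, 5.66 and 6.09 with IFNγ, with no overlap. In the KO cells it stood at 6.69, 6.33 and 6.31 in medium and 6.72, 6.12 and 6.23 with IFNγ, and these overlapped. The WT change was -0.82 (SE 0.28, adjusted p = 0.0871), and without WT IFNγ C it was -1.02 and was called (adjusted p = 0.0349). The KO change was -0.08 (SE 0.28, adjusted p = 0.909), and the 2 responses differed by 0.74 (SE 0.39, adjusted p = 0.726). Under IFNγ the KO libraries lay above the WT ones, by 0.65 (SE 0.28, adjusted p = 0.351).

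Uvrag stood at 7.96, 7.77 and 7.52 in WT medium and at 8.08, 8.44 and 8.55 with IFNγ, and at 7.90, 8.09 and 7.87 in KO medium and 8.36, 8.53 and 8.21 with IFNγ. Treated libraries were above untreated ones in both genotypes without overlap. The changes were 0.61 (SE 0.20, adjusted p = 0.0805) in WT and 0.41 (SE 0.20, adjusted p = 0.277) in KO cells, and neither was called. Nrbf2, a subunit of the ATG14 form, changed by -0.68 in WT cells (SE 0.29, adjusted p = 0.189) without overlap and by -0.09 in KO cells (adjusted p = 0.903). Atg14 stood at 6.65, 6.26 and 7.02 in WT medium, 6.28, 5.93 and 6.83 in WT IFNγ, 6.57, 5.73 and 5.94 in KO medium and 6.2, 4.69 and 6.12 in KO IFNγ. Its groups overlapped, with genotype differences of -0.56 in medium and -0.68 under IFNγ (SE 0.38 each, adjusted p = 0.779 and 0.50). Pik3c3, Rubcn (Rubicon, an inhibitor of the UVRAG form) and Ambra1 (a Beclin 1 partner) had IFNγ changes from -0.27 to 0.44, and their libraries overlapped in both genotypes.

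The 10 genes of PI3P reading and membrane supply held the 2 members that could not be tested. Atg2a, a lipid transfer protein, had 2 reads over the 12 libraries, 1 each in WT medium A and B. Atg9a, the lipid scramblase carried on vesicles, had 23 reads in 7 libraries, and it reached 3.35 in KO IFNγ B with 10 of them. The gene Gm29253 lies on the same strand over the last 500 bases of Atg9a. A transcript of it holds the last 300 bases of an Atg9a transcript unchanged, and reads there cannot be divided between them. Neither member could be tested with these reads. Atg2b, the second ATG2 gene, was tested and stood at 6.98, 7.33 and 7.49 in WT medium, 7.15, 6.79 and 7.25 in WT IFNγ, 7.07, 7.63 and 7.52 in KO medium and 7.74, 7.66 and 7.67 in KO IFNγ. The KO IFNγ libraries were above all those of WT IFNγ, by 0.63 (SE 0.23, adjusted p = 0.260). They were also above those of KO medium, by 0.29 (SE 0.23, adjusted p = 0.552).

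Vmp1, a scramblase of the endoplasmic reticulum that is needed to form autophagosomes, stood at 7.78, 8.05 and 8.32 in WT medium and 8.48, 8.76 and 8.22 with IFNγ. In KO cells it stood at 7.77, 7.95 and 7.66 in medium and 8.53, 8.30 and 8.08 with IFNγ. The changes of 0.44 (SE 0.21, adjusted p = 0.254) and 0.51 (SE 0.21, adjusted p = 0.176) were not called, and the libraries did not overlap in KO cells and overlapped in WT cells. The microRNA gene Mir21a lies over the last 500 bases of Vmp1, and reads there cannot be divided between them. Tmem41b, its partner scramblase, had changes of 0.08 and -0.42 (SE 0.25 each, adjusted p = 0.909 and 0.392).

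The WIPI family reads PI3P. Wipi2, which recruits ATG16L1, stood at a mean of 8.26 ± 0.11 (SD, n = 3) in WT medium, 8.41 ± 0.28 in WT IFNγ, 8.46 ± 0.40 in KO medium and 8.57 ± 0.34 in KO IFNγ. These means lay within the spread of the libraries, and the IFNγ changes were 0.15 and 0.11 (SE 0.23 each). Wdr45b (WIPI3) had changes of -0.15 and -0.23 (SE 0.21 each, adjusted p = 0.751 and 0.614). Wdr45 (WIPI4) stood at 4.93, 4.85 and 5.07 in WT medium, 4.64, 3.06 and 5.21 in WT IFNγ, 4.92, 5.4 and 4.61 in KO medium and 5.45, 4.83 and 5.57 in KO IFNγ. WT IFNγ B was low, and the KO cells stood 0.98 above WT under IFNγ (SE 0.46, adjusted p = 0.411). Without that library the difference was 0.36. A transcript of Gm45208, a gene on the same strand, holds 290 bases of the end of a Wdr45 transcript unchanged, so some Wdr45 reads may belong elsewhere.

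Wipi1 and Zfyve1 had the fewest reads of the tested members, 81 and 80 in all. Wipi1 had 15 reads in WT medium, 9 in WT IFNγ, 32 in KO medium and 25 in KO IFNγ, of which KO medium C alone gave 23. Its levels ran from 1.54 to 3.03, 0 to 3.41, 1.39 to 4.67 and 2.48 to 3.65 in these groups, all overlapping. Its genotype difference in medium was 0.77 (SE 0.95), and without that library it was -0.08. Zfyve1 (DFCP1, a PI3P reader at the omegasome) had 27, 8, 8 and 37 reads in the same order of groups, with levels from 2.01 to 4.26, 0 to 3.24, 0 to 2.48 and 1.13 to 4.11. Its changes of -1.36 in WT and 1.52 in KO cells had SEs of 1.06 and adjusted p of 0.519 and 0.481, and 95% intervals of -3.57 to 0.86 and -0.69 to 3.73. At this depth no direction could be read for either gene.

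The ATG4 proteases and ATG8 proteins make up the step that feeds the conjugation blocked by loss of ATG5. None of the 9 genes was called in any comparison, beside 0% to 7.36% of all genes over the 5 comparisons. Map1lc3a (LC3A, chromosome 2, 155276297 to 155278073, plus strand) came closest between the genotypes. It stood at 5.84, 6.42 and 6.52 in WT medium, 6.21, 6.58 and 6.28 in WT IFNγ, 5.77, 6.16 and 5.87 in KO medium and 4.49, 5.49 and 5.06 in KO IFNγ. All 3 KO IFNγ libraries were below the other 9. Under IFNγ the KO cells were 1.34 below WT (SE 0.31, 95% interval -2.0 to -0.69, adjusted p = 0.0601). With 1 library left out the difference ran from -1.58 to -1.08. It was largest, and called, without KO IFNγ B, the highest of the KO IFNγ libraries (adjusted p = 0.0431). Over the 22 alternatives the adjusted p reached 0.272. The IFNγ change in KO cells was -0.92 (SE 0.31, adjusted p = 0.0881) and in WT cells 0.10 (adjusted p = 0.905), and the responses differed by -1.01 (SE 0.44, adjusted p = 0.659).

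**Figure D3:**
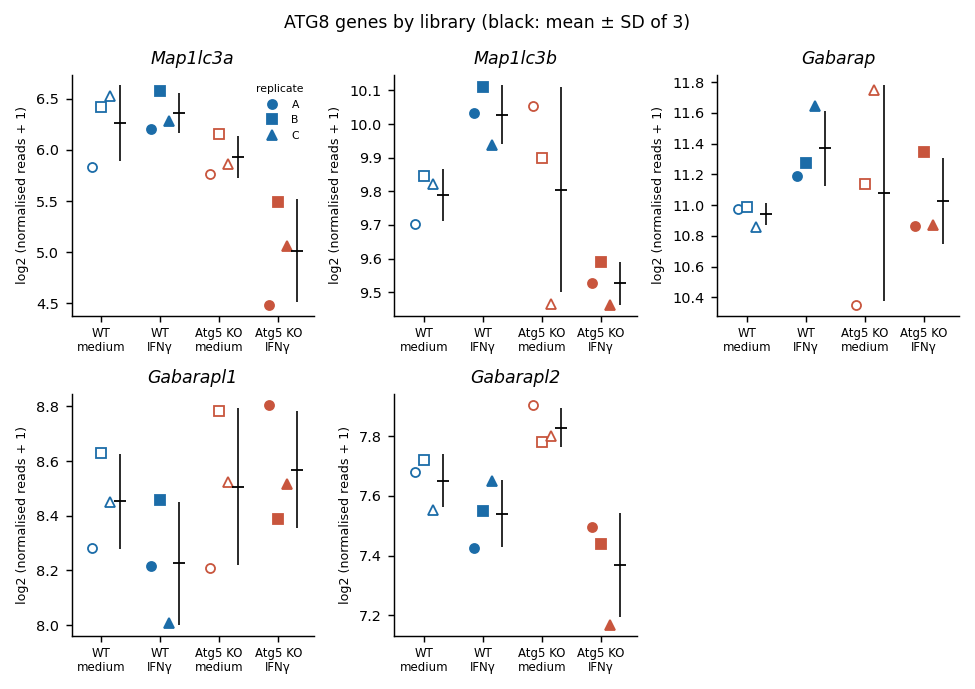
Values of the 5 ATG8 genes in each of the 12 libraries, on axes of log2 normalised reads plus 1 that do not start at 0 and differ between panels, with the mean and SD of 3. The KO IFNγ libraries of Map1lc3a (4.49 to 5.49) lie below all others, while Gabarap in KO medium spans 10.35 to 11.75.

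Map1lc3b (LC3B), the ATG8 protein most used as a marker of autophagosomes, stood at 9.70, 9.85 and 9.82 in WT medium and 10.03, 10.11 and 9.94 with IFNγ, and at 10.05, 9.90 and 9.46 in KO medium and 9.53, 9.59 and 9.46 with IFNγ. Under IFNγ the KO libraries were all below the WT ones, by 0.50 (SE 0.18, adjusted p = 0.239). Its last 300 bases matched a stretch of 100 bases or more, at 95% identity or more, in transcripts of 32 other genes. Where in those transcripts the match lies was not examined, and some of its reads may belong elsewhere. Gabarap stood at 10.98, 10.99 and 10.86 in WT medium and 11.19, 11.27 and 11.65 with IFNγ, a change of 0.43 (SE 0.26, adjusted p = 0.384) without overlap. Its KO libraries spread widely in medium (10.35, 11.13 and 11.75) and lay inside that range with IFNγ (10.86, 11.35 and 10.87), and the KO change was -0.05 (SE 0.26).

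Gabarapl2 (GATE-16) had the smallest spread of all members, a pooled SD of 0.12. It stood at 7.68, 7.72 and 7.55 in WT medium, 7.43, 7.55 and 7.65 in WT IFNγ, 7.90, 7.78 and 7.80 in KO medium and 7.50, 7.44 and 7.17 in KO IFNγ. IFNγ libraries were lower in KO cells without overlap, by 0.46 (SE 0.20, adjusted p = 0.191), and overlapped in WT cells, with a change of -0.11 (SE 0.20). Gabarapl1, stood at 8.28, 8.63 and 8.45 in WT medium, 8.22, 8.46 and 8.01 in WT IFNγ, 8.21, 8.78 and 8.53 in KO medium and 8.8, 8.39 and 8.51 in KO IFNγ. The groups overlapped throughout. It had IFNγ changes of -0.23 and 0.06 (SE 0.21 each), with 95% intervals of -0.66 to 0.20 and -0.37 to 0.49, inside a 2-fold change.

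Among the proteases, Atg4b is the most broadly acting, and Atg4d is known for taking ATG8 proteins off membranes. Atg4d had 202 reads in all and stood at 3.34, 4.33 and 3.11 in WT medium, 4.56, 4.16 and 5.01 in WT IFNγ, 4.75, 4.83 and 4.40 in KO medium and 3.82, 2.22 and 3.36 in KO IFNγ. WT libraries were mostly higher with IFNγ, and all KO libraries were lower. The changes were 0.98 (SE 0.51, adjusted p = 0.30) and -1.53 (SE 0.51, adjusted p = 0.0811), and their difference was -2.51 (SE 0.73, adjusted p = 0.466). The genotype difference was 1.07 in medium and -1.44 under IFNγ (adjusted p = 0.608 and 0.250), without overlap in either. Exons of Kri1 overlap Atg4d outside its last 500 bases.

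Atg4b stood at 6.36, 6.55 and 6.94 in WT medium, 6.70, 6.97 and 7.28 in WT IFNγ, 6.99, 7.18 and 6.39 in KO medium and 6.53, 6.51 and 6.16 in KO IFNγ. Under IFNγ the KO libraries were below the WT ones, by 0.58 (SE 0.27, adjusted p = 0.399), and the responses differed by -0.82 (SE 0.38, adjusted p = 0.690). Atg4a and Atg4c overlapped in all 4 pairs of groups, with IFNγ changes from -0.65 to 0.38. Atg16l2, a relative of ATG16L1 that is dispensable for canonical autophagy, was 0.66 higher in KO than in WT cells in medium without overlap (SE 0.34, adjusted p = 0.650), and it changed by -0.70 with IFNγ in KO cells (adjusted p = 0.268).

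Of the fusion genes other than Tecpr1, none was called, beside 0% to 7.36% of all genes over the 5 comparisons. Stx17, Snap29 and Vamp8 encode the SNARE bundle that joins autophagosome and lysosome. Vamp8 stood at 3.22, 3.29 and 3.40 in WT medium and 4.71, 4.59 and 3.70 with IFNγ, and at 3.42, 3.73 and 4.33 in KO medium and 3.69, 3.06 and 4.29 with IFNγ. The WT libraries were higher with IFNγ without overlap and the KO libraries overlapped. With 166 reads in all, the changes of 1.03 (SE 0.51, adjusted p = 0.264) and -0.15 (SE 0.51, adjusted p = 0.912) did not pass. Stx17 had changes of -0.70 and -0.58 (SE 0.35 each, adjusted p = 0.278 and 0.411), with overlap in both genotypes. Snap29 had changes of -0.15 and 0.22 (SE 0.20 each), with intervals inside a 2-fold change.

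Epg5, a tether that gives fusion its specificity, stood at 4.74, 5.14 and 5.19 in WT medium and 6.26, 5.69 and 4.84 with IFNγ, and at 5.26, 4.38 and 5.04 in KO medium and 5.37, 5.4 and 5.52 with IFNγ. The KO libraries did not overlap, and the WT ones did. The changes were 0.57 and 0.54 (SE 0.38 each, adjusted p = 0.438 and 0.487). Without WT IFNγ C the WT change was 0.95, and without KO medium B the KO change was 0.28, neither called.

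Whether loss of Atg5 changed the rest of the machinery was asked in each condition. In medium, 0.428% of all genes were called (47 of 10981) and 0 of the 36 members. An unadjusted p under 0.05 was reached by 1 member, Atg101 (0.54, SE 0.23, adjusted p = 0.549). Over all genes 8.26% reached it, 386 higher and 521 lower, and voom called 0 members. Libraries did not overlap for 7 members, 5 higher and 2 lower, beside 13.6% of all genes, 6.21% higher and 7.37% lower. For 23 of the 36 the interval lay within a 2-fold change, beside 7052 of the 10981 tested genes. The median difference was -0.09, beside -0.01 over all genes.

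Under IFNγ, 0.492% of all genes were called between the genotypes (54 of 10981) and 0 of the 36 members. The unadjusted p was under 0.05 for 9 members, 3 higher and 6 lower in KO cells, beside 12.0% of all genes (672 higher and 645 lower). Voom called 0 members. Libraries did not overlap for 8 members, 2 higher and 6 lower, beside 16.1% of all genes, 7.08% higher and 9.04% lower. Of the 6 lower, 4 were Atg4b, Atg4d, Map1lc3a and Map1lc3b, and the other two were Atg101 and Tecpr1. The median difference was -0.04 (all genes 0.00 to 2 decimals). Intervals of 18 of the 36 lay within a 2-fold change, beside 6679 of the 10981 tested genes.

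**Figure D4:**
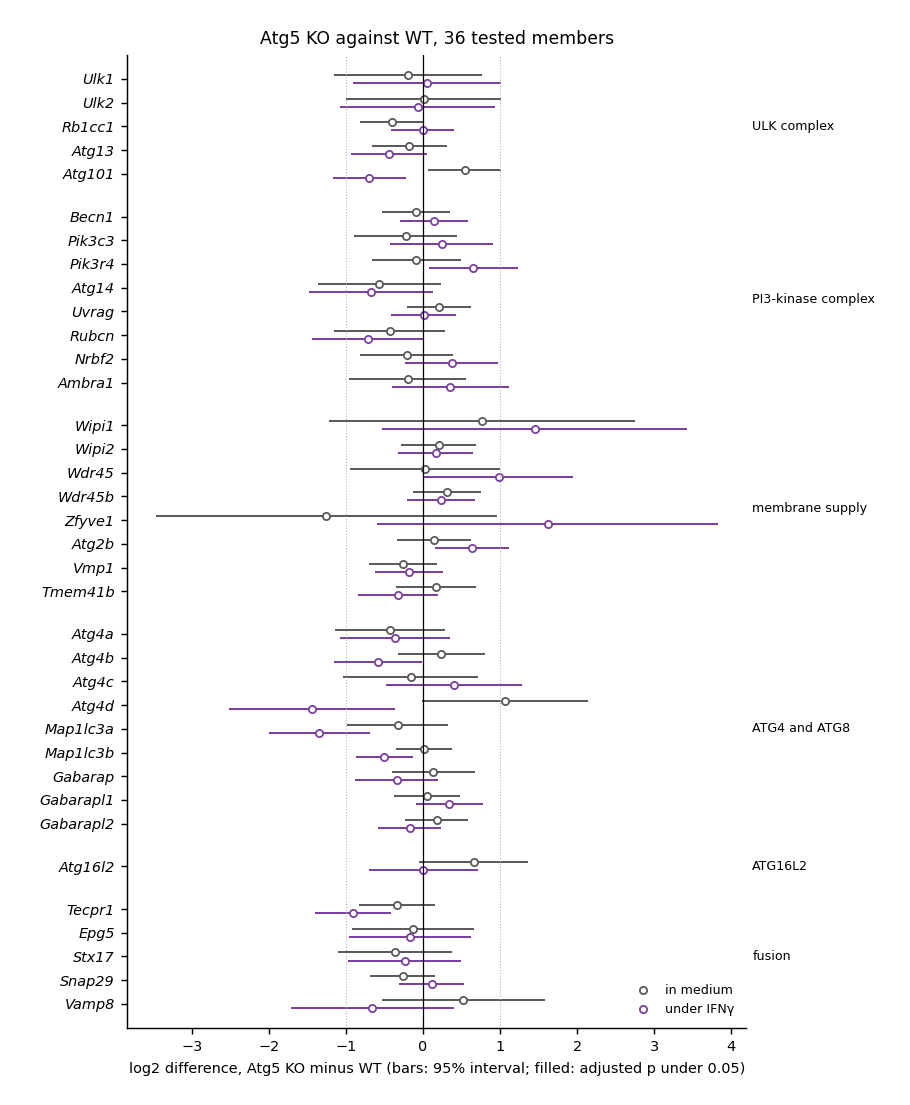
Atg5 KO minus WT for the 36 tested members on the log2 scale, with 95% intervals, in medium and under IFNγ, grouped by role. All points are open, since none was called, and Map1lc3a under IFNγ at -1.34 had the smallest adjusted p of them, 0.0601.

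The test of the difference between the IFNγ responses called 0 of 10981 genes (0%) and 0 of the 36 members, and voom called 0 members. At an unadjusted p under 0.05 there were 792 genes (7.21%), 475 with the higher and 317 with the lower response in KO cells. The members among them were 4, Atg101, Atg4d, Map1lc3a and Atg4b, all with the lower response in KO cells. The intervals of these differences are wide, and 10 of the 36 lay within a 2-fold change, beside 3975 of the 10981 tested genes. The WT and KO responses share no library. Over the 36 members they had a Pearson correlation of -0.07 and the same sign in 19 (52.8%), beside 0.72 and 63.4% over the 10981 tested genes. These correlations are across genes, which are not independent replicates. The 2 also span unlike ranges: WT changes ran from -1.36 to 1.03 over the members and from -4.63 to 10.0 over all genes. Zfyve1 (80 reads, -1.36 in WT and 1.52 in KO cells) and Atg4d (202 reads, 0.98 and -1.53) lay far out in opposite directions. The correlation without such genes of few reads was not computed.

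**Figure D5:**
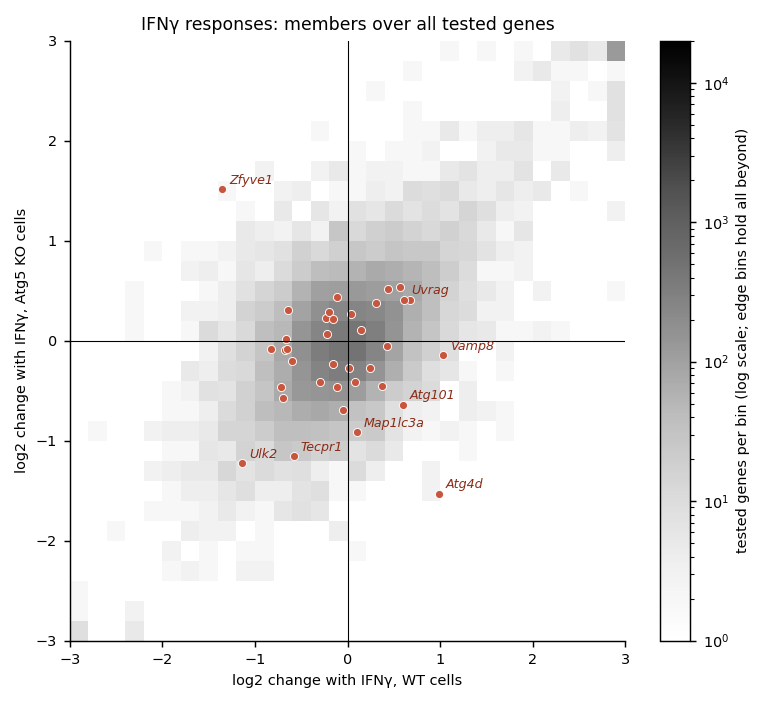
IFNγ change in Atg5 KO cells against that in WT cells, both log2, for the 36 members (points) over the number of tested genes per bin (shade, log scale, with genes beyond 3 counted in the edge bins). Tecpr1 and Ulk2 lie low on both axes, while Atg4d (0.98 and -1.53) and Atg101 (0.60 and -0.64) lie in opposite directions.

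The spread between libraries of a group was a pooled SD of 0.35 at the median over members, beside 0.34 over all tested genes. It was under 0.3 for 14 members and over 0.6 for 4, Ulk1, Wdr45, Wipi1 and Zfyve1. No member passed the filter through 1 group alone, and 35 of the 36 reached it in all 4 groups. Exons of another gene overlap 14 of the 38 members, and for 4 of them, Atg9a, Becn1, Map1lc3b and Vmp1, they do so over the last 500 bases, where these reads lie. For 7 members, none of them Tecpr1, Map1lc3a or Atg101, a transcript of another gene matched the last 300 bases. The match was at least 95% identical over 100 bases or more, anywhere in that transcript. The 7 are Atg4a, Atg9a, Map1lc3b, Nrbf2, Rb1cc1, Wdr45 and Wdr45b. Nrbf2 matched Gm6740 at 100% over 300 bases, and Rb1cc1 matched Gm13961 at 96.7% over 300.

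Around the machinery, 46 other autophagy genes were listed by role, of which 45 were tested and Vamp7 was not analysed here. With IFNγ, 1 of 45 was called in WT cells and 3 of 45 in KO cells, all lower, where 6.65% and 7.36% of all genes were called. Deptor, which encodes an inhibitor of the growth kinase mTOR, stood at 8.10, 7.70 and 8.25 in WT medium and 4.48, 5.11 and 7.72 with IFNγ, and at 7.85, 7.68 and 8.28 in KO medium and 5.83, 5.43 and 6.61 with IFNγ. It fell by 2.24 in WT cells (SE 0.53, adjusted p = 0.0128) and by 1.98 in KO cells (SE 0.53, adjusted p = 0.0273), and WT IFNγ C overlapped the medium libraries. Without WT IFNγ C the WT change was -3.22, and the call was lost without WT medium A or C or WT IFNγ A or B, with changes down to -1.60. In KO cells the call was lost without any 1 of the KO libraries A and B or KO medium C, with adjusted p up to 0.106. Without a mean-variance trend in the moderation, both Deptor calls were lost (adjusted p = 0.0869 and 0.125), and without the filter the KO call was lost (adjusted p = 0.0594).

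Ncoa4, the receptor that takes ferritin to the autophagosome, fell by 0.85 in KO cells (SE 0.24, adjusted p = 0.0304). Its KO libraries stood at 7.42, 7.66 and 7.18 in medium and 6.67, 6.53 and 6.5 with IFNγ, and its WT change was -0.77 (adjusted p = 0.0572). Prkaa2, a catalytic subunit of the energy sensor AMPK, which activates ULK1, fell by 0.71 in KO cells (SE 0.19, adjusted p = 0.0243), from 9.19, 9.04 and 8.98 to 8.39, 8.19 and 8.51. Its WT change was -0.35 (adjusted p = 0.314). The call of Prkaa2 was lost without any 1 of the 4 KO libraries A and B (adjusted p up to 0.100). That of Ncoa4 was lost without any 1 of the same 4 or KO IFNγ C (adjusted p up to 0.136), in a fit of the 2 groups alone (0.0575), and without both IFNγ libraries C (0.0663). Of the 6 conjugation genes and 11 tethering genes, 0 were called in any comparison, beside 0% to 7.36% of all genes. Between the genotypes limma called 0 of the 45 in medium or under IFNγ, beside 0.428% and 0.492% of all genes. At an unadjusted p under 0.05 there were 4 and 2 of the 45, beside 8.26% and 12.0% of all genes.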

How the data were processed

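The data are 12 RNA-seq libraries of BV2 cells, grouped by their titles. The labels' protocols describe each biological replicate as made on its own, while the design text speaks of replicates pooled into 1 library, so p-values measure the spread between these libraries, which may be technical. The authors deposited 1 table of log2 values. The submitters' processing notes name the build GRCm38 and the tools HTSeq 0.6.1, DESeq2 1.10.1, STAR and FastQC 0.11.2, and the strand setting of the counting is not given in the sources used here. Each value is log2 of a count over a size factor, plus 1: undoing this gave whole reads (tolerance 0.01) for 100% of values.

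Tested genes reached 3 on the log2 scale in 3 or more of the 12 libraries. The test was limma 3.58.1 (R 4.3.3) with 1 mean per group, trended empirical Bayes moderation, two-sided p-values and Benjamini-Hochberg adjustment over all tested genes within each of 5 comparisons. Intervals are 95%. The procedure was tested on simulated data. The letters A, B and C were not taken to pair the libraries, since no label ties them. Nor were same-letter correlations, taken across genes on deviations from the group means, all above the level set for pairing. The members and lists were chosen with earlier results of these data known. Members were named in full where called, where the unadjusted p was under 0.05 in 2 or more comparisons, where they were among the 2 largest or 2 smallest changes of a comparison or the highest or lowest level, and for the ATG8 genes. Values of Rb1cc1, Atg13, Uvrag, Vmp1 and Atg2b, under 0.05 in 1 comparison, were added after their values were seen. Alternatives covered the scaling, the filter, the pseudocount, the model, voom on the recovered reads, a replicate block, and leaving out each library.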

Additional observations from a re-analysis of the deposited data

Results flagged for a closer look

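Atg101 was flagged since its IFNγ libraries lay all above medium libraries in WT cells and all below them in KO cells. Over all tested genes, 0.428% (47 of 10981) had libraries that did not overlap in either genotype and lay in opposite directions. The difference of its responses was -1.24 (SE 0.32) and was not called (limma, adjusted p = 0.379). The unadjusted p of 0.00109 comes from the same libraries as the flag, so it is not separate support. The adjusted p ranged from 0.273 to 0.796 over the alternatives, and the size from -1.36 to -1.10. The fit of only the 2 groups compared cannot give this difference and is not among them.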

How the results depend on the processing

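Over 22 alternatives, the call of Tecpr1 in KO cells held throughout (-1.36 to -0.98), and no named change of a member lost a call. With IFNγ in WT cells, 0 members were called as reported. Scaling by total reads and quantile normalization each called 1 (Rb1cc1), beside 7.07% and 7.21% of all genes. Leaving out 1 library called 0 to 3, with the 3 found without WT IFNγ C, beside 9.87% of all genes. Without both IFNγ libraries C, the treated libraries nearest to medium, 3 were called (Pik3r4, Rb1cc1 and Tecpr1), beside 10.2% of all genes. Between the genotypes under IFNγ, 0 were called as reported and 0 to 1 with 1 library left out. The 1 was found without KO IFNγ B, where 0.574% of all genes were called. The replicate block called 2 (Map1lc3a and Tecpr1, adjusted p = 0.032 and 0.0439), beside 0.81% of all genes. Deviations of same-letter libraries from their group means had correlations of -0.06 to 0.22 across tested genes, so pairing was not taken as shown. By these deviations, libraries correlated best with their own letter in 0 of 6 (IFNγ in WT) and 4 of 6 (IFNγ in KO). Between the genotypes they did so in 6 of 6 (medium) and 4 of 6 (IFNγ), a hint from the data and not the design. The block changed no other count of members called. The genotype difference of Wipi1 in medium (0.77 as reported) ranged from -0.085 to 1.55 with 1 library left out, and it turned sign without KO medium C, which holds 23 of its 32 KO medium reads. The count of all genes called ranged from 424 to 1119 for IFNγ in WT cells (730 reported), 513 to 959 in KO cells (808), 23 to 57 between the genotypes in medium (47), 18 to 89 under IFNγ (54), and 0 to 3 for the difference of the responses (0). Scaling by total reads shifted the median of all genes to at most -0.07. The cause of these changes was not tested. Few reads limit Atg2a, Atg9a, Wipi1 and Zfyve1. Intervals reach past a 2-fold change for 13 to 26 members per comparison, beside 3929 to 7006 of the 10981 tested genes.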
